A study of Mus musculus with 2 samples.

Results

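The cells described here are the *Id1*-high cells of the library labelled S1/5 dKO, 272 of the 2843 cells of that library and of 5036 cells in both libraries. They were selected on a measured value. A cell belonged to them if it had at least 1000 detected genes, at most 5% of its unique molecular identifiers (UMIs) from mitochondrial mt- genes, at least 10000 UMIs in all, and at least 4 *Id1* UMIs per 10000 UMIs. They were compared with the 1083 cells of the same library that had fewer than 0.5 *Id1* UMIs per 10000, of which 625 had none, and the 1488 cells between these limits entered no group. The series holds 1 single-cell library of parental E14 mouse embryonic stem cells (mESCs, called WT) and 1 of E14 cells in which *Smad1* and *Smad5* were both targeted with CRISPR-Cas9 (S1/5 dKO). Both were grown without feeders in serum medium with LIF and were captured with the Chromium 3′ kit, which counts mRNA molecules by a tag near their 3′ end. The labels do not say which knockout line was sequenced. In the library labelled S1/5 dKO *Smad5* mRNA was higher and *Smad1* mRNA lower than in WT. Counts near the 3′ end do not show whether a transcript carries an edit, so these levels cannot check the label.

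With 1 library per condition no group had a replicate, cells are not replicates, and no test was made between groups. Every interval below is a 95% interval (exact Poisson for a summed level, exact Clopper-Pearson for a share, exact conditional binomial for a ratio, and normal for a difference between the log2 ratios of both libraries). These intervals cover counting error only and not the spread between cultures, which was not measured. A level is the UMIs of a gene summed over a group of cells, per 1000000 UMIs of that group (CPM), and a log2 ratio compares the level in *Id1*-high cells with that in *Id1*-low cells unless stated otherwise. The *Id1*-high cells had 10757159 UMIs in all and the *Id1*-low cells 37901667. No barcode was shared between the cells of the libraries, and no doublets were removed.

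*Id1* encodes an inhibitor of DNA binding, a helix-loop-helix protein without a basic region that pairs with E proteins such as TCF3, TCF4 and TCF12 and keeps them, and their tissue-specific bHLH partners, from DNA. *Id1*, *Id2* and *Id3* are classical targets of bone morphogenetic protein (BMP) signalling: BMP receptors phosphorylate SMAD1 and SMAD5, which enter the nucleus with SMAD4 and bind enhancers of the *Id* genes. In mESCs kept with LIF, ID proteins are known to support self-renewal by holding back neural differentiation.

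The *Id1*-high cells made up 9.57% (8.51 to 10.7) of the S1/5 dKO cells, against 24.4% (22.7 to 26.3) of the WT cells, 536 of 2193, at the same limit. Among the 272 cells the *Id1* value ran from 4.01 to 23.6 per 10000 UMIs with a median of 5.51, and the median cell had 22.5 *Id1* UMIs. The limit of 4 did not fall in a gap of the distribution, with 63 cells between 3.5 and 4 and 52 between 4 and 4.5, and the nearest values on either side of it were 3.999 and 4.008. At the upper end, 107 cells had at least 6, 31 cells at least 10 and 1 cell at least 20 per 10000, whereas in WT 330, 159 and 35 cells reached these values. The summed *Id1* level of 644 CPM in the *Id1*-high and 14.9 in the *Id1*-low cells was set by the selection and is given as a description.

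**Figure D1:**
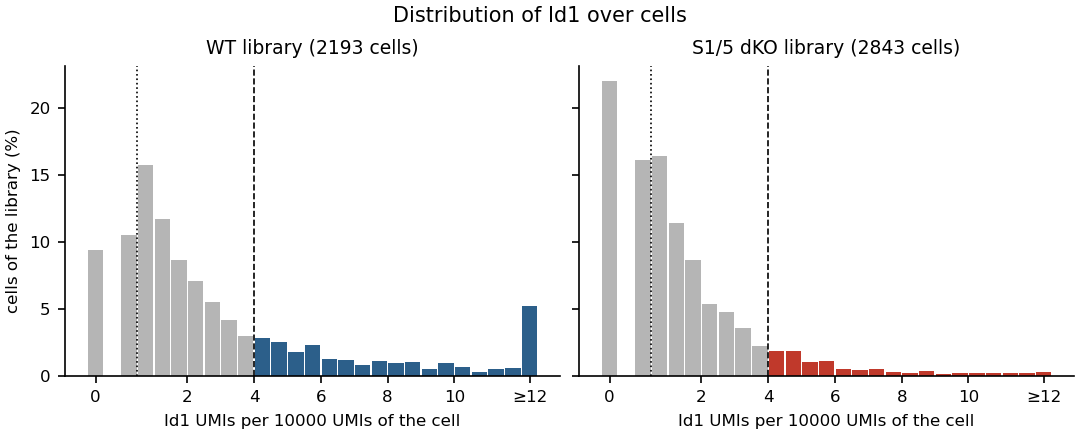
Percent of the cells of each library (vertical axis) by *Id1* UMIs per 10000 UMIs of the cell (horizontal axis, bins of 0.5, with cells at 0 and at 12 or more in bars of their own). Coloured bars right of the dashed line at 4 are the *Id1*-high cells, 9.57% in the library labelled S1/5 dKO and 24.4% in WT, the dotted line at 0.5 bounds the *Id1*-low cells, and neither distribution has a gap at these limits.

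The *Id1*-high and *Id1*-low S1/5 dKO cells were close in depth and RNA composition. The median cell had 35888.5 UMIs and 5185 detected genes in the *Id1*-high group and 33263 UMIs and 4929 genes in the *Id1*-low group. The median share of mitochondrial UMIs was 1.87% and 1.84%, and that of ribosomal protein genes 25.2% and 25.4%. Cells with over 2 times the library's median UMIs, where doublets are most likely, were 4.04% of the *Id1*-high and 2.12% of the *Id1*-low cells. Cell cycle scoring placed 18.8% (14.3 to 23.9) of the *Id1*-high cells in G1, 27.6% (22.3 to 33.3) in S and 53.7% (47.6 to 59.7) in G2/M. The *Id1*-low cells had 25.1% (22.6 to 27.8), 24.0% (21.5 to 26.7) and 50.9% (47.9 to 53.9) in these phases. Every pair of intervals overlapped, which does not show the shares to be alike, and the G1 share was lower in the *Id1*-high cells. Of 41 S phase genes 1 was at least 1.5-fold higher and 0 were lower, and of 52 G2/M genes 0 were past 1.5-fold either way. Among all genes with at least 200 UMIs in both groups together, 3.11% were higher and 2.26% lower. The median log2 ratios of the S phase and G2/M genes were 0.10 and 0.02. The part of phase and depth in the differences below was not tested beyond the ratios within a phase given beside them.

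*Id3* and *Id2*, which were high in the *Id1*-high cells of WT, were not higher in the *Id1*-high cells of S1/5 dKO. *Id3* was at 56.7 CPM (52.3 to 61.4) in the *Id1*-high and 61.6 (59.1 to 64.1) in the *Id1*-low cells, a log2 ratio of −0.12 (−0.25 to 0.01). *Id2* was at 16.2 and 18.7 CPM, a log2 ratio of −0.21 (−0.46 to 0.03). Both intervals hold 0. With the 5 cells richest in *Id3* left out of each group the ratio was −0.39 (−0.54 to −0.24). These 5 cells are a larger part of 272 than of 1083 cells, so this trim tends to lower the ratio and does not test its direction. In WT cells chosen by the same limits *Id3* was at 205 against 55.9 CPM, a log2 ratio of 1.87 (1.77 to 1.98), and *Id2* at 119 against 27.5, a log2 ratio of 2.11 (1.97 to 2.25). The S1/5 dKO ratio minus the WT ratio was −1.99 (−2.16 to −1.83) for *Id3* and −2.32 (−2.59 to −2.04) for *Id2*. *Id4* was sparse, with 16 UMIs in the *Id1*-high and 42 in the *Id1*-low cells. Since *Id3* does not go with *Id1* here, the cells are named by *Id1* alone.

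WT cells reach higher *Id1* values, so cells of equal *Id1* were also set side by side. In the bin of 4 to 6 *Id1* UMIs per 10000, the summed *Id1* level was 486 CPM in 165 S1/5 dKO cells and 494 in 206 WT cells. At this matched level *Id3* was at 58.3 (52.6 to 64.4) CPM in S1/5 dKO and 112 (105 to 119) in WT, and *Id2* at 14.9 (12.1 to 18.2) and 63.3 (58.4 to 68.6). Over the 7 bins from 0 to 10 or more, *Id3* in S1/5 dKO stayed between 45.8 and 66.3 CPM, with its lowest level in the highest bin, while in WT it was at 62.4 at 0 and 392.4 at 10 or more. In cells at 0 *Id1*, *Id3* was at 57.1 (53.8 to 60.5) in S1/5 dKO and 62.4 (56.7 to 68.5) in WT, with intervals that overlap.

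In cells thinned to 10000 UMIs each, Pearson's r between *Id1* and *Id3* was −0.003 over the 2843 S1/5 dKO cells and 0.39 over the 2193 WT cells, and for *Id2* it was 0.001 and 0.34. These r are descriptions over cells that share a library. Among the *Id1*-high S1/5 dKO cells 16 of 272 (5.88%) had at least 2 *Id3* UMIs per 10000, beside 71 of 1083 (6.56%) *Id1*-low cells, and in WT 201 of 536 (37.5%) *Id1*-high cells did.

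**Figure D2:**
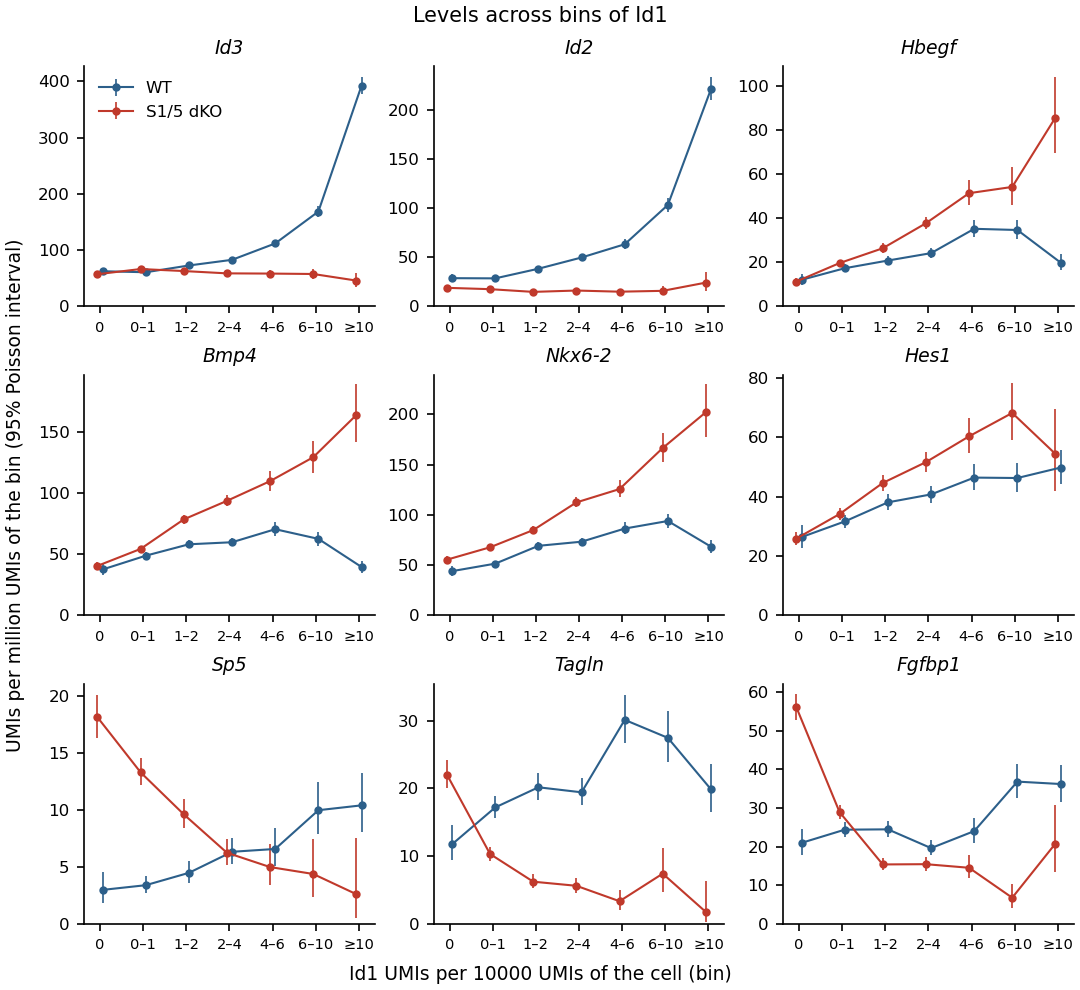
Summed level of 9 genes (vertical axes, CPM of the bin, bars are 95% Poisson intervals) in 7 bins of *Id1* UMIs per 10000 (horizontal axes), in WT (blue) and in the library labelled S1/5 dKO (red). In WT *Id3* and *Id2* are higher in each bin than in the one before from 1 to 2 upwards, which they are not in S1/5 dKO, *Hbegf*, *Bmp4* and *Nkx6-2* have their highest level in the last bin in S1/5 dKO and in an earlier bin in WT, and *Sp5* is lower with more *Id1* in S1/5 dKO and higher with more *Id1* in WT.

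Receptors and transducers of the BMP pathway were near level between the *Id1*-high and *Id1*-low cells. Of the receptor-regulated transducers, *Smad1* was at 9.76 and 9.21 CPM (log2 ratio 0.08, −0.24 to 0.40) and *Smad5* at 9.02 and 9.10 (−0.01, −0.35 to 0.32). *Smad4*, the common partner, was at 32.1 and 29.8 (0.11, −0.07 to 0.28), and *Smad9*, a further BMP-responsive SMAD, had 0 UMIs in the *Id1*-high cells. Of the 4 receptors with at least 200 UMIs in both groups together (*Bmpr1a*, *Acvr2b*, *Tgfbr1*, *Eng*) 0 were past 1.5-fold, with log2 ratios between −0.18 and 0.44, though *Bmpr1a* was at −0.78 in cells thinned to 10000 UMIs. Of 5 measured E proteins and bHLH partners 1 was past 1.5-fold (*Neurod1*, lower, though at 0.17 among G1 cells alone). By the same rule 3.11% of all measured genes were higher and 2.26% lower, so counts from such short lists say little. *Tcf3* was at 51.3 and 56.4 CPM (−0.14, −0.27 to 0.00) and *Tcf4* at 50.9 and 34.7 (0.55, 0.41 to 0.70).

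Over all genes, 8577 had at least 200 UMIs in the *Id1*-high and *Id1*-low S1/5 dKO cells together. Of these, 267 (3.11%) were at least 1.5-fold higher and 194 (2.26%) at least 1.5-fold lower in the *Id1*-high cells, and the median log2 ratio was 0.01. In WT, 91 of 8184 genes (1.11%) were higher and 21 (0.257%) lower by the same rule. The *Id1*-high group was the smaller one in S1/5 dKO and the larger one in WT, so the counts of the libraries rest on different depths. Among the 8142 genes measured in both libraries, 35 of the 238 genes higher in S1/5 dKO were also higher in WT (14.7% of the S1/5 dKO genes and 38.9% of the 90 WT genes). Of the 142 lower genes, 14 were also lower in WT (9.86%, and 77.8% of the 18 WT genes). Past 1.5-fold in opposite directions were 1 gene higher in S1/5 dKO, *Slc9b2*, named after its value was seen, and 7 genes lower in S1/5 dKO, among them *Sp5* and *Ptch1*. Pearson's r between the log2 ratios of the libraries was 0.31 and Spearman's rho 0.21 across genes, which are not independent.

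**Figure D3:**
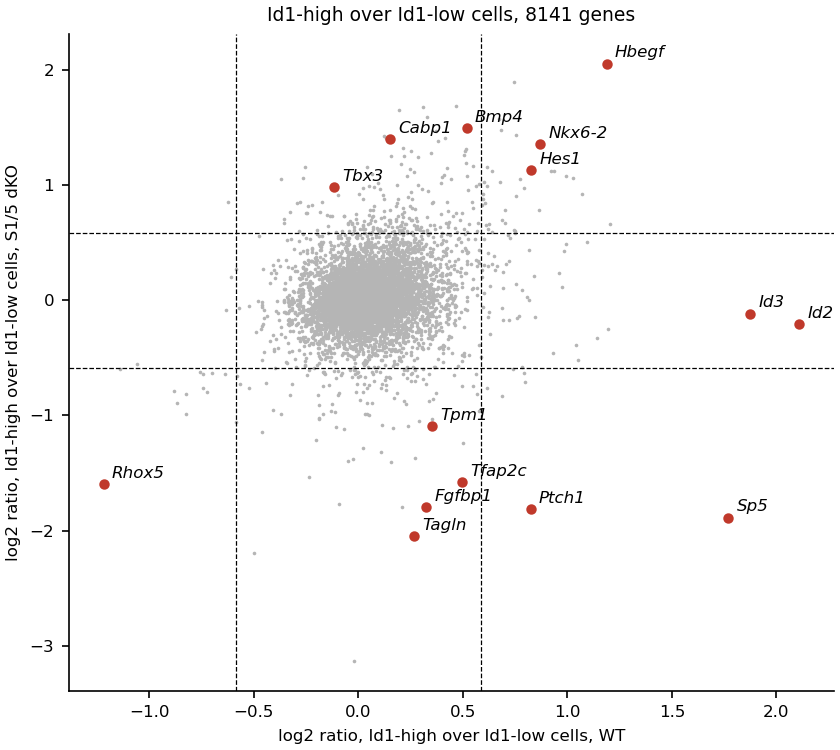
Log2 ratio of the level in *Id1*-high over *Id1*-low cells in WT (horizontal axis) and in the library labelled S1/5 dKO (vertical axis), 1 point per gene for 8141 of 8142 genes (*Gm21761* lies outside the axes), with 1.5-fold as dashed lines. *Hbegf*, *Bmp4*, *Nkx6-2* and *Hes1* lie above the upper line, *Id2* and *Id3* lie far right at a vertical position near 0, and *Sp5* and *Ptch1* are higher in WT and lower in S1/5 dKO.

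The highest log2 ratio among genes with at least 500 UMIs was that of *Hbegf*, which encodes a membrane-anchored ligand of the EGF receptor. It was at 55.8 CPM (51.4 to 60.4) in the *Id1*-high and 13.5 (12.31 to 14.7) in the *Id1*-low cells, a log2 ratio of 2.05 (1.88 to 2.22), and at 30.9 and 13.6 in WT (1.19, 0.97 to 1.41). The *Id1*-low cells of the libraries were thus at like levels of *Hbegf*, and the *Id1*-high cells of S1/5 dKO were above those of WT. Thinned to 10000 UMIs, 41.9% (36.0 to 48.0) of the *Id1*-high and 13.0% (11.1 to 15.2) of the *Id1*-low S1/5 dKO cells had a *Hbegf* UMI, and 76.5% and 31.0% without thinning. No cell type known to lack the gene was at hand in these libraries for a background share. In barcodes of 10 to 100 UMIs, which hold free RNA, *Hbegf* was at 15.8 CPM.

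*Bmp4*, a BMP ligand, was at 121 CPM (115 to 128) in the *Id1*-high and 43.0 (40.9 to 45.1) in the *Id1*-low cells, a log2 ratio of 1.49 (1.39 to 1.60), with 37.3 CPM in the barcodes of free RNA. In WT it was at 59.6 and 41.6 (0.52, 0.39 to 0.65), and the S1/5 dKO ratio minus the WT ratio was 0.98 (0.81 to 1.14). Of the other ligands and antagonists, *Gdf3* was at 173 and 221 (−0.36, −0.43 to −0.28) and *Fst*, which binds activins and BMPs, at 7.07 and 4.43 (0.67, 0.26 to 1.07, but −0.020 among G1 and −0.12 among S cells alone), and 12 of the 15 on the list had too few UMIs. *Nkx6-2*, a homeobox gene, was at 145 against 56.8 CPM (1.35, 1.26 to 1.45), and in WT at 83.8 and 45.9 (0.87, 0.75 to 0.99).

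Within the *Id1*-high S1/5 dKO cells these genes differed further with *Id1*. *Hbegf* was at 51.3, 54.1 and 85.5 CPM in cells with 4 to 6, 6 to 10 and at least 10 *Id1* UMIs per 10000, *Bmp4* at 109.9, 129 and 164, and *Nkx6-2* at 126, 166 and 202. The WT cells in these 3 bins had 35.2, 34.6 and 19.9 for *Hbegf*, 70.4, 62.5 and 39.4 for *Bmp4*, and 86.2, 93.7 and 68.1 for *Nkx6-2*. In S1/5 dKO all 3 genes were highest in the last bin, which held 31 cells, and in WT all 3 were lowest in it among these bins.

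The remaining genes of the highest 15 were *Ppm1j*, a protein phosphatase, *2310043M15Rik*, *Myl4*, a myosin light chain, *Wnt6*, a Wnt ligand, *Cabp1*, a calcium-binding protein, *Itpka*, an inositol trisphosphate kinase, *Parvb*, a focal adhesion protein, *Exoc3l*, *Nfic*, a nuclear factor I gene, *Rtkn*, *Foxp4*, a forkhead factor, and *Cryab*, a small heat shock protein. Their log2 ratios lay between 1.18 for *Cryab* and 1.47 for *Ppm1j*, and in WT between 0.13 for *Myl4* and 0.76 for *2310043M15Rik*. *Cabp1* was at 65.3 against 24.7 CPM in S1/5 dKO and 25.1 against 22.6 in WT. The 5 richest cells held at most 17.6% of a gene's UMIs in the *Id1*-high group, the share for *Rtkn*, so these levels came from many cells.

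Of the 15 lowest log2 ratios, 3 came from a handful of *Id1*-low cells. *Gm21761*, *Gm5039* and *Gm8300* had 0, 2 and 3 UMIs in the *Id1*-high and 850, 504 and 608 in the *Id1*-low cells, where 5 cells held 99.1%, 99.2% and 99.2% of them. *Gm21761* is on the list of genes of 2C-like cells, the rare mESCs that resemble the 2-cell embryo. At least 10 UMIs of that list were found in 4 of 1083 *Id1*-low cells (0.369%) and in 0 of 272 *Id1*-high cells, which allows a share of up to 1.35% by the Clopper-Pearson interval and 1.10% by a floor of 3 counts.

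Genes of the contractile cytoskeleton were among the other low ratios. *Tagln* (transgelin), an actin-binding protein, was at 4.28 CPM (3.13 to 5.70) in the *Id1*-high and 17.7 (16.4 to 19.1) in the *Id1*-low cells, a log2 ratio of −2.05 (−2.51 to −1.62), and at 26.5 and 22.0 in WT (0.27, 0.08 to 0.46, but −0.83 among WT cells in G2/M alone). With it *Myl9*, a myosin light chain, was at −1.77 (−2.27 to −1.31), *Tpm1*, a tropomyosin, at −1.09 (−1.23 to −0.96) and *Cnn2*, a calponin, at −0.81. Of 15 measured epithelial and cytoskeletal genes 5 were lower and 1 was higher, *Krt8*, a keratin (1.02, 0.74 to 1.29), with a median of −0.15. Over all genes 2.26% were lower and 3.11% higher. In WT 2 of 16 were higher (1.11% over all genes) and 0 lower, with a median of 0.34. For *Tagln*, 5 cells held 63.0% of the UMIs of the *Id1*-high and 33.4% of those of the *Id1*-low cells. Without them, a larger part of the smaller *Id1*-high group, the log2 ratio was −2.88 (−3.67 to −2.18). Among G1 cells alone it was −0.87.

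*Sp5*, a zinc-finger factor induced by Wnt signalling, was at 4.56 CPM (3.37 to 6.02) in the *Id1*-high and 16.9 (15.6 to 18.2) in the *Id1*-low cells of S1/5 dKO, a log2 ratio of −1.89 (−2.34 to −1.47). In WT the direction was the opposite, with 8.71 and 2.55 CPM and a log2 ratio of 1.77 (1.29 to 2.27). Across the bins *Sp5* was at 18.2 CPM at 0 *Id1* and 2.59 (0.535 to 7.58) at 10 or more in S1/5 dKO, and at 2.97 and 10.4 in WT. Here 5 cells held 51.0% of the UMIs of the *Id1*-high group. Without the 5 richest cells of each group, a larger part of the smaller *Id1*-high group, the log2 ratio was −2.71 (−3.36 to −2.12). It was −0.89 among G1 cells alone. The other Wnt targets with enough UMIs were *Tcf7* at 0.37 (0.04 to 0.69) and *Notum* at 0.07 (−0.15 to 0.28).

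*Ptch1*, the Hedgehog receptor, was at 4.83 against 17.0 CPM in S1/5 dKO (−1.81, −2.25 to −1.40) and at 13.8 against 7.77 in WT (0.82, 0.53 to 1.13). *Fgfbp1*, a secreted carrier of FGFs, was at 13.0 and 45.2 CPM (−1.80, −2.06 to −1.55), in WT at 31.4 and 25.1 (0.32, 0.15 to 0.50), and at −0.89 among G1 cells of S1/5 dKO alone. *Tfap2c*, an AP-2 factor, had −1.58 (WT 0.50), *Utrn*, which encodes utrophin, −1.37 (WT 0.27) and *Ctgf*, a YAP target, −1.24 (WT 0.50), so these 5 genes were lower in S1/5 dKO and above 0 in WT. *Crmp1* had −1.38, *Neurod1*, a neurogenic bHLH factor, −1.14 and *Sfrp2*, a Wnt antagonist, −1.12, with −0.03, −0.46 and −0.07 in WT. *Rhox5*, a homeobox gene of the X chromosome, was at −1.59 (−1.96 to −1.25) in S1/5 dKO and −1.22 in WT (0.26 among WT cells in S phase). In the *Id1*-high group 5 cells held 79.7% of the *Rhox5* UMIs. Without the 5 richest cells of each group, a larger part of the smaller *Id1*-high group, the ratio was −3.37.

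The bases before the start sites of *Bmp4* and *Nkx6-2*, which were higher with *Id1*, and of *Sp5*, whose direction differed between the libraries, are shown so that the letters near these starts can be read beside the levels. Each is the 250 bases upstream of the start, 5′ to 3′ on the gene's strand, from RefSeq on GRCm38.p6. Capitals mark CTTTGA (a TCF/LEF core), TGACTCA (AP-1) and GGCGCC (a GC-rich SMAD motif), searched on both strands.
*Bmp4*, chr14:46390670-46390919, minus strand: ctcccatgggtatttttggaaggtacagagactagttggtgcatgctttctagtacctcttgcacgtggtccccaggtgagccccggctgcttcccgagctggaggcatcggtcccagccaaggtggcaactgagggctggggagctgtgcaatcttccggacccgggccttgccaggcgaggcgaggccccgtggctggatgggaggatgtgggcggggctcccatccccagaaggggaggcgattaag
*Nkx6-2*, chr7:139582798-139583047, minus strand: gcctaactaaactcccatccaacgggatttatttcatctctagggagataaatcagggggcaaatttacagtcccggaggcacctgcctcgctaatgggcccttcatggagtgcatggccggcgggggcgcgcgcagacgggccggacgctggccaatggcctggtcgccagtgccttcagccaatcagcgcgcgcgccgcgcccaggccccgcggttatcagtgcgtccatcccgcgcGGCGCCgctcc
*Sp5*, chr2:70474673-70474922, plus strand: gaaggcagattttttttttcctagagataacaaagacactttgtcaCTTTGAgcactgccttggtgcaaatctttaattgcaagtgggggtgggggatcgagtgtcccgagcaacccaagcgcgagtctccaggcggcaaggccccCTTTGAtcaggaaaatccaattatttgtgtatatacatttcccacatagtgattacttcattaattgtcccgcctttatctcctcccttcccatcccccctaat
*Sp5* had 2 matches to CTTTGA, 204 to 199 and 104 to 99 bases before the start, a motif found in 13.8% of 32851 promoters of this length. *Nkx6-2* had 1 match to GGCGCC, 11 to 6 bases before the start, which 9.59% of promoters hold. TGACTCA, found in 4.46%, was in none of the 3. The SMAD motif GTCT, not capitalised, is found in 82.9% and had 1 match in *Bmp4*, 1 in *Nkx6-2* and 2 in *Sp5*. The promoter of *Fgfbp1*, whose direction also differed between the libraries, is not shown and had 0 matches to each of these motifs. No entry for *Id1* or *Hbegf* was at hand. A match is a string of letters and not a measured binding site.

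Among 15 feedback and target genes of BMP-SMAD signalling, 8 had enough UMIs, 3 were at least 1.5-fold higher and 0 lower, with a median of 0.41 beside 0.01 over all genes (WT 2 of 8 higher). Over all genes 3.11% were higher and 2.26% lower (WT 1.11% higher). *Hes1*, a bHLH repressor, was at 61.9 and 28.3 CPM (1.13, 0.99 to 1.27), in WT at 0.82. *Tbx3*, a T-box factor that also belongs to the naive pluripotency network, was at 97.7 and 49.6 (0.98, 0.87 to 1.09), while in WT it was at 57.9 and 62.8 (−0.12, −0.23 to 0.00). The other one was *Zfp423*, a zinc-finger cofactor of SMADs (0.75, 0.53 to 0.97). *Smad7*, an inhibitory SMAD, had 0.45 (0.33 to 0.56), *Dusp9*, an ERK phosphatase, 0.38 (0.19 to 0.57), and *Bambi*, a decoy receptor, −0.47 (−0.80 to −0.16). *Smad6* had 9 and 58 UMIs, under the minimum. Of 7 Nodal-SMAD2/3 targets 1 was lower, *Lefty1*, a Nodal antagonist, at 35.2 and 70.5 CPM (log2 ratio −1.001, −1.160 to −0.845, in WT 0.05, but −0.70 with WT cells taken at the same shares as in S1/5 dKO), while *Lefty2* (0.27), *Nodal* (0.25) and *Tdgf1*, its co-receptor (0.40), were above 0. *Skil*, a SMAD co-repressor, was at −0.33 (−0.60 to −0.07), but at 0.12 among S cells alone, and in WT at 1.14.

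Of 10 measured immediate early genes 5 were higher and 1 lower (*Klf6*, −0.73, but 0.10 among G1 cells alone), with a median log2 ratio of 0.55. Over all genes 3.11% were higher and 2.26% lower. In WT 4 of 10 were higher (1.11% over all genes) and the median was 0.46. *Dusp1*, a MAP kinase phosphatase, was at 13.1 and 5.75 CPM (log2 ratio 1.19) and *Nr4a1*, a nuclear receptor, at 14.8 and 7.52 (0.97, 0.69 to 1.26). *Junb*, an AP-1 subunit, was at 99.7 and 58.1 (0.78, 0.67 to 0.89) and *Myc* at 46.7 and 27.8 (0.75, 0.59 to 0.90). *Jun* was at 4.74 and 6.52 (−0.46, −0.92 to −0.02), and in WT at a log2 ratio of 0.93 (−0.13 among WT cells in S phase).

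Of 12 FGF-ERK response genes 4 were higher (3.11% over all genes) and 0 lower, with a median of 0.29. They were *Phlda1* at 51.6 and 23.0 CPM (1.17, 1.01 to 1.32), *Etv4*, an ETS factor, at 127 and 69.3 (0.87, 0.78 to 0.97), *Dusp6*, the ERK phosphatase, at 37.6 and 21.4 (0.82, 0.64 to 0.99) and *Spry4*, a Sprouty inhibitor, at 37.2 and 23.0 (0.70, 0.52 to 0.87). *Etv5* and *Spry2* of the same families were at 0.08 and −0.03. In WT 1 of 11 was higher (1.11% over all genes), with a median of 0.13, and *Etv4* was at 0.02. Of 11 genes of the LIF receptor and STAT3 pathway 2 were higher, *Junb* and *Bcl3* (0.84, 0.71 to 0.97), while *Socs3*, the feedback inhibitor, was at 0.24 (0.09 to 0.38) and *Pim1*, a kinase, at −0.49 (−0.66 to −0.32). In WT 2 of 11 were higher too.

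Of 17 measured core and naive pluripotency factors 3 were at least 1.5-fold higher and 1 was lower (3.11% and 2.26% over all genes), with a median of 0.29 beside 0.00 in WT. Besides *Tbx3* these were *Klf5*, at 193 and 121 CPM (0.67, 0.59 to 0.75), and *Gbx2*, at 66.9 and 42.3 (0.66, 0.53 to 0.79), both factors that promote self-renewal. The lower one was *Dppa3* (−0.79, −1.31 to −0.29), of which 5 cells held 69.2% of the UMIs in the *Id1*-high group. The defining transcripts of mESCs were present in both groups, with *Pou5f1* at 1398 and 1217 (0.20, 0.17 to 0.23), *Nanog* at 0.42 (0.34 to 0.50), *Zfp42* at 0.13 and *Sox2* at −0.22. Of 8 formative and primed factors 2 were lower and 1 was higher, with a median of −0.35 (WT 0.08). *Otx2*, a factor of the exit from the naive state, was at 2.23 and 8.44 CPM (−1.92, −2.58 to −1.32) and *Dnmt3a*, a de novo DNA methyltransferase, at 14.3 and 29.9 (−1.06, −1.31 to −0.82, in WT −0.59). *Foxd3* was higher at 0.72 (0.57 to 0.87), and *Pou3f1* was at −0.05 (−0.29 to 0.18).

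**Figure D4:**
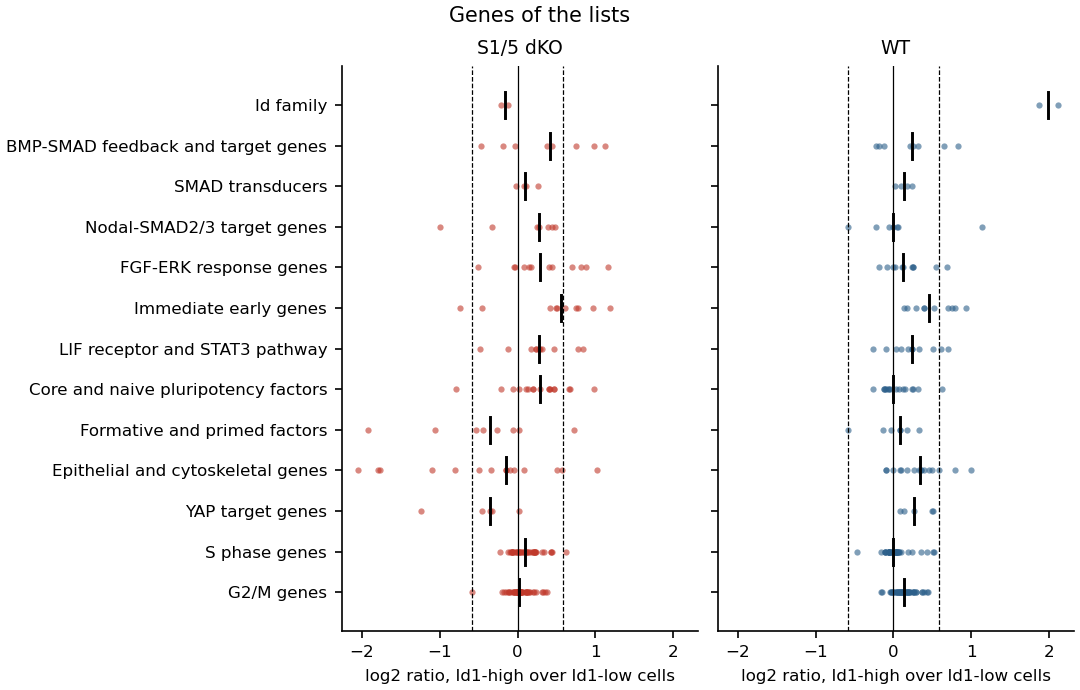
Log2 ratio of the level in *Id1*-high over *Id1*-low cells (horizontal axes) for the genes of 13 lists with at least 200 UMIs (1 point per gene, *Id1* left out, black bars are list medians, dashed lines 1.5-fold), in the library labelled S1/5 dKO (left) and in WT (right). The *Id* family has a median of −0.16 in S1/5 dKO and 1.99 in WT and the epithelial and cytoskeletal list has medians of −0.15 and 0.34.

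In the remaining lists few genes were past 1.5-fold, and over all genes 3.11% were higher and 2.26% lower. Of 5 YAP targets 1 was lower (*Ctgf*), with a median of −0.36 (WT 0.26). Of 12 p53 targets 1 was higher, *Perp*, a desmosomal protein (1.05, 0.91 to 1.19), with a median of 0.10. Of 13 glycolysis and hypoxia genes 1 was lower, *Bnip3*, a mitophagy receptor (−1.59, −2.36 to −0.91). Of 13 ER stress and ATF4 genes and 7 genes of the KDM1A histone demethylase complex 0 were past 1.5-fold, with log2 ratios of −0.21 to 0.31 and −0.20 to 0.19. Of the Notch targets only *Hes1* and *Notch1* (0.31, −0.05 to 0.65) had enough UMIs.

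Of 7 fibroblast or feeder genes the summed level was 1.30 CPM in the *Id1*-high and 0.739 in the *Id1*-low cells, with *Col1a2*, *Col3a1*, *Dcn*, *Lum* and *Postn* at 0 in the former. Of 8 trophoblast genes it was 5.86 and 4.62, with *Elf5* and *Hand1* at 0. The 9 mesoderm genes summed to 9.39 and 7.04 and the 10 neural genes to 1060 and 1083 CPM. The 11 primitive endoderm genes summed to 223 and 141, and 2 of the 3 measured were higher, the matrix genes *Sparc* (0.68, 0.61 to 0.75) and *Lama1* (0.85, 0.53 to 1.16), while *Gata4* was at 0 in the *Id1*-high cells. Of 4 measured germ cell genes 2 were lower, *Tfap2c* and *Dppa3*, with a median of −0.53. Over all genes 3.11% were higher and 2.26% lower. The part of other cell types in the differences above was not tested.

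Over the 2843 S1/5 dKO cells, thinned to 10000 UMIs, 6191 genes detected in at least 10% of cells were ranked by Pearson's r with *Id1*. The highest r were those of *Hspb1*, a small heat shock protein (0.24, and 0.11 over the 2193 WT cells), *Bmp4* (0.23, WT 0.01), *Epop*, a Polycomb-associated protein (0.22, WT 0.09), *Ccnd3*, a D-type cyclin (0.22, WT 0.01), and *Hbegf* (0.20, WT 0.09). *Pdgfa*, *Nkx6-2*, *Prr13*, *Tmsb4x* and *Dppa5a* followed with r from 0.17 to 0.19. *Id3* had rank 3470 and *Id2* rank 3088. The lowest r were those of the histone genes *Hist1h1b* (−0.19, WT −0.15), *Hist1h2ae* (−0.16, WT −0.13) and *Hist1h2ap* (−0.15, WT −0.15), of *Ldhb*, a lactate dehydrogenase subunit (−0.15, WT −0.10), and of *Ppia*, cyclophilin A (−0.15, WT 0.02). These r are low, the cells share 1 library, and the sparse counts of single cells limit how high an r can be.

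*Id1* lies at chr2:152736251-152737410 of GRCm38 (plus strand). Of the 21 genes with enough UMIs within 1000 kb of its start, *Slc52a3*, a riboflavin transporter (1.16, 0.74 to 1.57 and in WT 0.10), *Srxn1*, a sulfiredoxin (1.02, 0.81 to 1.24 and in WT 0.68), and *H13*, a signal peptide peptidase (0.64, 0.47 to 0.82 and in WT 0.28), were at least 1.5-fold higher. *Sox12*, a SOX factor gene (−0.64, −1.11 to −0.19 and in WT 0.07), was at least 1.5-fold lower. Over all genes 3.11% were higher and 2.26% lower, and a part of position in these ratios was not tested. *Tcf15*, a bHLH factor gene that starts at −593 kb from *Id1*, was at 816 and 570.3 CPM (0.52, 0.48 to 0.55 and in WT 0.41). The median log2 ratio of each chromosome lay between −0.02 and 0.03.

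The *Id1*-high cells had the levels by which the library labelled S1/5 dKO differs from WT. *Mest*, an imprinted gene, was at 85.6 CPM (80.2 to 91.3) in them and 94.9 (91.8 to 98.0) in the *Id1*-low cells, against 12.4 and 6.90 in WT. Cells without a *Mest* UMI were 10.7% of the *Id1*-high and 11.5% of the *Id1*-low S1/5 dKO cells, against 88.2% of the *Id1*-high WT cells. *Nnat* and *Impact*, also imprinted, were at 23.2 and 92.7 CPM in the *Id1*-high S1/5 dKO cells and 3.48 and 56.8 in the *Id1*-high WT cells. *Grb10*, an imprinted adaptor that was lower in this library, was at 1.21 and 19.0. Within S1/5 dKO a *Grb10* UMI was found in 4.78% (2.57 to 8.03) of the *Id1*-high and 9.97% (8.25 to 11.9) of the *Id1*-low cells. The 69 chromosome 8 genes from *Borcs8* to *Smad1* had a median log2 ratio of S1/5 dKO over WT of −0.52 among *Id1*-high and −0.50 among *Id1*-low cells. Of 6 genes that were higher in this library than in WT, 1 was past 1.5-fold between its *Id1*-high and *Id1*-low cells, *Xlr3c*, at 9.02 and 4.75 CPM (0.93, 0.55 to 1.29). Among all measured genes 3.11% were higher and 2.26% lower between these cells.

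**Figure D5:**
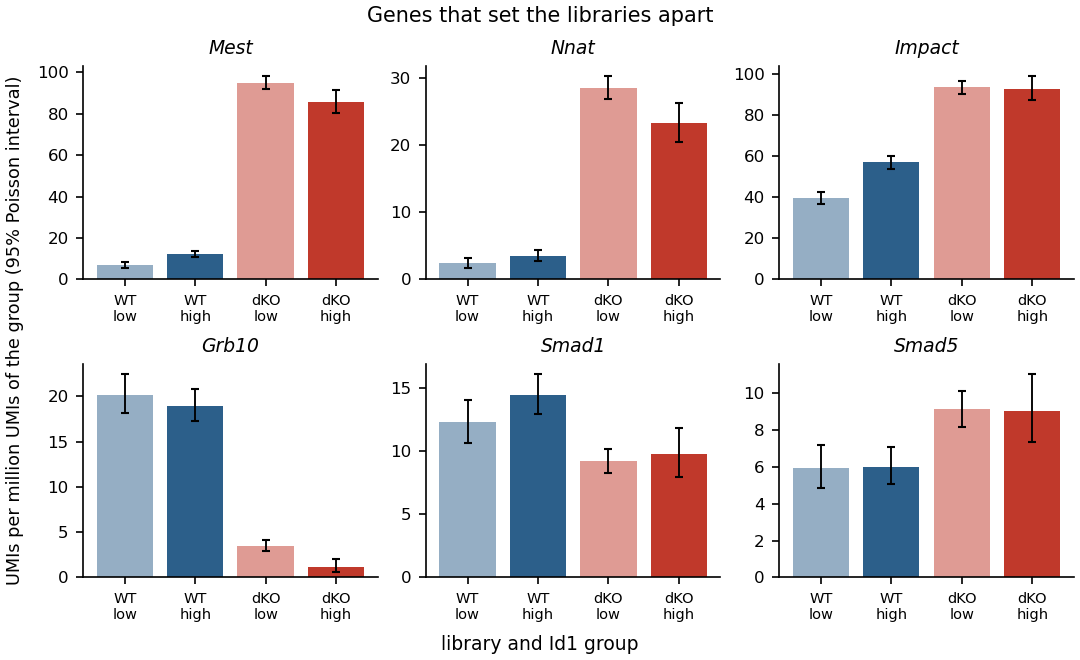
Summed level (vertical axes, CPM of the group, bars are 95% Poisson intervals) of 6 genes in the *Id1*-low and *Id1*-high cells of WT (blue) and of the library labelled S1/5 dKO (red, marked dKO). For *Mest*, *Nnat*, *Impact* and *Grb10* the *Id1*-high cells of S1/5 dKO stand nearer to the *Id1*-low cells of the same library than to WT, and *Smad5* is at 9.02 CPM in them against 5.99 in the *Id1*-high WT cells.

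Set directly against the *Id1*-high WT cells, the *Id1*-high S1/5 dKO cells had less *Id2* (log2 ratio of S1/5 dKO over WT −2.87, −3.10 to −2.65), *Id3* (−1.85, −1.98 to −1.73), *Tagln* (−2.63, −3.10 to −2.20) and *Dusp9* (−0.83, −1.01 to −0.64). They had more *Bmp4* (1.02, 0.91 to 1.13), *Hbegf* (0.85, 0.69 to 1.01), *Nkx6-2* (0.79, 0.69 to 0.89) and *Tbx3* (0.76, 0.64 to 0.87). Among the *Id1*-low cells the same ratios were −0.56 for *Id2*, 0.14 for *Id3*, −0.32 for *Tagln*, −0.56 for *Dusp9*, 0.05 for *Bmp4*, −0.01 for *Hbegf*, 0.31 for *Nkx6-2* and −0.34 for *Tbx3*. Genotype and library cannot be told apart in this comparison, and the *Id1*-high groups also differ in *Id1*, with medians of 5.51 and 7.23 per 10000. In the bin of 4 to 6 the levels in S1/5 dKO and WT were 14.9 and 63.3 CPM for *Id2* and 58.3 and 112 for *Id3*. They were 3.32 and 30.1 for *Tagln*, 109.9 and 70.4 for *Bmp4*, and 51.3 and 35.2 for *Hbegf*. *Nkx6-2* was at 126 and 86.2 and *Tbx3* at 95.8 and 58.0. *Dusp9* was nearer to level in this bin, at 28.4 (24.5 to 32.7) and 38.0 (34.2 to 42.1).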

How the data were processed

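Single-cell RNA-seq libraries of WT and S1/5 dKO mESCs, 1 per condition, were analysed from the deposited UMI counts per gene and barcode. The authors made these raw counts with Cell Ranger 3.0.2 on mm10 per the labels, for all barcodes and without normalization. Cells were filtered as stated, and doublets were not called; cells over 2 times the median UMIs were left out in an alternative. UMIs were summed per group and divided by the group's total. Genes with at least 200 UMIs over both groups were counted as higher or lower past 1.5-fold, and a count of 0 was replaced by a floor of 3 for a bound. Cells were thinned to 10000 UMIs for shares, correlations and cell cycle phases, which were scored in Seurat 5.3.0 (R 4.3.3) since the package used in the study was not at hand. The text names genes of the fixed lists, the genes with the 15 largest and 15 smallest log2 ratios among those with 500 UMIs or more in both groups summed, the 10 genes of highest and 5 of lowest r with *Id1*, and, by position, neighbours of *Id1*. A result for 1 neighbour is not reported here. Positions are those of GENCODE M21 (31011 of 31053 genes matched). The members and lists were chosen with earlier results of these data known. The ratios and their intervals were tested on simulated Poisson sums of 2 groups, without single cells and without selection on *Id1*. That test does not cover genes whose UMIs lie in a few cells. Python 3.11.15, numpy 2.4.6, scipy 1.17.1, pandas 2.3.3 and matplotlib 3.10.9 were used. The depth, 95749252 UMIs in WT and 108678040 in S1/5 dKO cells, sets the intervals.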

Additional observations from a re-analysis of the deposited data

Results flagged for a closer look

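For 15 named genes the log2 ratio of *Id1*-high over *Id1*-low cells had opposite signs in the libraries, and the S1/5 dKO ratio minus the WT ratio was at least 1 in size with a counting interval that left out 0. The difference was −2.32 for *Id2* and −1.99 for *Id3*. It was −3.66 for *Sp5*, −2.64 for *Ptch1*, −2.32 for *Tagln*, −2.12 for *Fgfbp1* and −2.07 for *Tfap2c*. Smaller ones were −1.74 for *Ctgf*, −1.64 for *Utrn*, −1.47 for *Skil*, −1.45 for *Tpm1*, −1.39 for *Jun*, −1.08 for *Anxa2* and −1.05 for *Lefty1*. For *Tbx3* it was 1.10, the single case among them with the higher ratio in S1/5 dKO. The signs depended on the setting for some of them. In WT the ratio was −0.83 for *Tagln* and −0.28 for *Anxa2* among G2/M cells alone, 0.091 for *Tbx3* among the same cells, −0.13 for *Jun* among S cells, −0.051 for *Tfap2c* with thinned cells, −0.0014 for *Utrn* against cells without *Id1* and −0.70 for *Lefty1* with WT cells taken at the same shares as in S1/5 dKO. In S1/5 dKO it was 0.050 for *Anxa2* with thinned cells and 0.12 for *Skil*, 0.16 for *Id2* and 0.10 for *Id3* among S cells. With 1 library per condition these differences were not tested.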

How the results depend on the processing

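No paired analysis was possible because each condition has 1 library. Of the named genes past 1.5-fold in S1/5 dKO, 60 of 60 kept their direction with cells thinned to 10000 UMIs (42 still past 1.5-fold), against all other cells (44) and when 1 random part of the UMIs chose the cells and the rest gave the levels (50). These genes were past 1.5-fold in the same library, some named for it, and the alternatives draw on its cells. A kept direction is thus a description and not independent support. With limits of 3 and 6 *Id1* UMIs per 10000, the *Id1*-high share was 15.3% and 3.76% (WT 31.6% and 15.0%), with thinning 13.7% (WT 28.6%), and 301 genes were lower at the limit of 6. Counts of higher and lower genes were 78 and 56 with thinning (WT 25 and 5), 142 and 97 with that random split (WT 45 higher), 80 and 59 in G1 cells (WT 53 and 13) and 93 and 50 in S cells (WT 36 and 7). They were 651 and 565 with a minimum of 50 UMIs (WT 376 and 128), 149 and 77 with 500 (WT 34 and 10), 827 and 578 at the lower of the other fold limits tried (WT 482 and 115) and 67 and 59 at 2-fold (WT 12 and 5). Against cells without an *Id1* UMI 138 genes were higher in WT. In S1/5 dKO the log2 ratio of *Id2* was 0.057 with that random split and 0.16 in S cells, and that of *Id3* 0.10 in S cells. In WT *Id2* was at 1.92 and *Id3* at 1.66 with the limit of 3, 2.51 and 2.27 with 6, 1.68 and 1.55 against all other cells, 1.85 and 1.76 with that random split and 2.33 and 1.59 in G1 cells. *Id2* was at 1.70 in WT with thinning, and *Id3* at 1.71 against cells without *Id1* and 2.42 in S cells. With WT cells taken at the same shares as in S1/5 dKO, an alternative chosen after seeing the data, *Id2* was at 2.74 and *Id3* at 2.52. Among ratios past 1.5-fold, signs reversed in S1/5 dKO for *Neurod1* (0.17), *Fst* (−0.020) and *Klf6* (0.10) in G1 cells and for *Fst* (−0.12) in S cells. In WT such ratios reversed for *Gm21761* with the limit of 3 (0.51), *Twist1* with thinning (−0.23), *Krt18* with that random split (−0.44), in S cells (−0.53) and at the same shares (−0.047), and *Rhox5* (0.26) and *Jun* (−0.13) in S cells. Ratios under 1.5-fold, such as those of *Id2* and *Id3* above, changed sign in further cases. The cause was not tested. Leaving out the 5 cells richest in a gene and the cells with 2C-like transcripts were also chosen after seeing the data. In S1/5 dKO the 5 cells were a larger part of the *Id1*-high than of the *Id1*-low group. Depth limits genes under 200 UMIs.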
